A study of Mus musculus with 10 samples.

Results

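The genes described here are the Id genes Id1, Id2 and Id3 and the E-protein genes Tcf3, Tcf4 and Tcf12, 6 genes in all, chosen by name from the 26206 genes that could be represented in the deposited tables. All 6 were listed in every library, and 5 of them reached the level needed for a test, the exception being Id3. The series holds 10 RNA-seq libraries of ER-Hoxa9-Lys-GFP cells. This C57BL/6 mouse line consists of myeloid progenitors kept in culture by Hoxa9 joined to the estradiol-binding domain of the estrogen receptor. As background, the fusion is active while estradiol is present and holds the cells as progenitors, and they mature once the hormone is removed. All groups therefore carried the same fusion and grew in the same serum and stem cell factor medium. They differed in how long estradiol was absent and in how long, if at all, it was then restored.

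The libraries formed 5 groups of 2. The untreated group kept estradiol throughout. The 24 h, 40 h and 72 h groups were washed free of estradiol for 24, 40 or 72 h. It was then restored for 96, 80 or 48 h, so these cells were collected with the hormone present. A longer time without estradiol thus came with a shorter time after its return, and these cannot be told apart. The 120 h group stayed without estradiol for 120 h and never had it restored, so it differed from the 72 h group both in the time without the hormone and in having none at collection, and those effects cannot be told apart. Nothing in the labels says that the libraries of a group were separate cultures. The p-values therefore reflect the spread between the libraries of a group, and this spread may be technical only. It was pooled over all 5 groups, so each comparison also drew on the spread of groups that were not in it.

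E proteins are basic helix-loop-helix transcription factors that pair with each other or with tissue-restricted partners and bind the E-box, a short DNA motif of the form CANNTG. Id proteins have the helix-loop-helix part that makes the pairing but lack the basic part that holds DNA, so an E protein paired with an Id protein cannot bind. In blood formation E proteins are known for starting lymphoid gene programs in progenitors, and Id proteins for holding these programs down, in myeloid and innate lymphoid cells among others. The comparisons below ask how the RNA of both families stood in each group. They also ask how near it lay to the untreated level in cells that had the hormone again. No library of those groups was taken before estradiol was restored. A return to the untreated level therefore cannot be told from a level that never changed.

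The libraries were deep. The number of reads behind each table, recovered from the step between low values, ran from 173590000 to 204370000. RPKM, the unit of all levels given here, is a read count divided by the length of the transcript and by the reads of the library, so that levels can be set side by side between genes. Withdrawal was visible in 2 marker genes. Kit, the stem cell factor receptor, was at 155 ± 4.47 RPKM (SD, n = 2) in untreated cells and 21.1 ± 7.95 at 120 h, and S100a8, a calprotectin gene of mature neutrophils, went from 0.533 ± 0.305 to 6040 ± 488. Progenitor markers were high in untreated cells, where 14 such genes summed to 5653 to 6142 RPKM. Of other lineages, 8 mast cell, basophil and eosinophil markers summed to 187 to 212 RPKM there, 7 B cell markers to 52.4 to 52.6, and 7 T cell markers to no more than 1.40 RPKM in any library. The first 2 principal components held 83.7% and 12.3% of the variance. On the first the 120 h libraries stood farthest apart, at 110 and 133 against -43.6 to 8.90 for the others. The 72 h libraries stood apart on the second.

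In untreated cells the E-protein genes outweighed the Id genes. Tcf3 had the highest level of the 6 genes, 51.8 ± 1.52 RPKM (SD, n = 2), and stood above 87.7% of the 12989 genes tested. Tcf12 followed at 16.1 ± 0.798 RPKM and Tcf4 at 6.54 ± 0.310. Id2 was at 4.31 ± 0.522 RPKM and Id1 at 2.48 ± 0.294, and Id3 was at or near 0. At 120 h the order had turned over for the transcripts analysed. Id2 led with 187 ± 42.5 RPKM, above 97.2% of the genes tested. Tcf3 followed at 17.9 ± 1.74, then Id1 at 13.3 ± 2.73, Tcf12 at 10.6 ± 0.191 and Tcf4 at 1.17 ± 0.0191. In bulk RNA such as this, fewer cells of a type and less RNA per cell cannot be told apart.

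**Figure D1:**
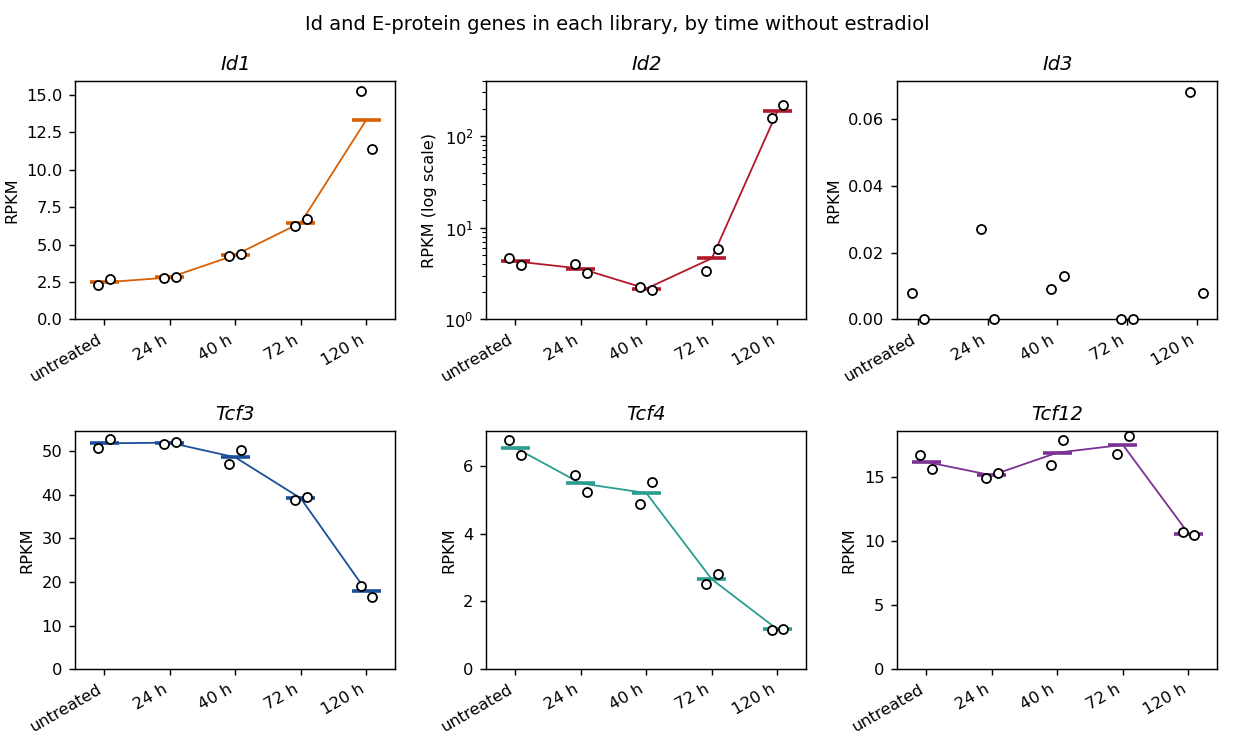
RPKM of the 6 genes in each library (open circles), by time without estradiol, with the mean of each group as a bar for the genes that were tested. The axis of Id2 is logarithmic and those of the others start at 0. Id1 climbed through the groups, Id2 was lowest at 40 h and far above all others at 120 h, Tcf4 and Tcf3 declined, and Tcf12 was lower at 120 h.

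Id1 encodes an Id protein that is induced in many cell types by BMP signals. Its gene lies at chr2:152736251-152737410 on the plus strand (GRCm38), and the transcript analysed, Id1-201, has 2 exons and 934 bases. Id1 RNA was at 2.27 and 2.68 RPKM in the untreated libraries, 2.75 and 2.86 at 24 h, 4.23 and 4.37 at 40 h, 6.21 and 6.71 at 72 h, and 15.3 and 11.4 at 120 h. Each group lay above the one before it with no overlap between libraries. From 433 to 2477 reads stood behind these values. The group means were 1.13, 1.74, 2.61 and 5.39 times the untreated mean.

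On the log2(RPKM + 1) scale on which all tests were made, the change of Id1 against untreated was 0.13 ± 0.13 (SE) at 24 h, 0.61 ± 0.13 at 40 h, 1.10 ± 0.13 at 72 h and 2.03 ± 0.13 at 120 h. The increase passed the test at 72 h (limma, adjusted p = 0.000281) and at 120 h (adjusted p = 2.23e-06). At 40 h it passed narrowly (adjusted p = 0.0412), and the call was lost when any single library of the untreated, 24 h, 40 h or 72 h groups was left out (adjusted p from 0.0673 to 0.275). Neighbouring times differed between 120 h and 72 h by 0.93 (adjusted p = 0.000236) and between 72 h and 40 h by 0.49 (adjusted p = 0.0243), the latter call being lost without any 1 of the 40 h or 72 h libraries. Between 40 h and 24 h the difference of 0.48 missed the threshold (adjusted p = 0.236). In RPKM, 36.7% of the rise seen at 120 h was present at 72 h, after 48 h back in estradiol, and 16.8% at 40 h.

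Id2 encodes the Id protein best known for its part in natural killer, innate lymphoid and dendritic cell development. Its gene lies at chr12:25093799-25097140 on the minus strand, and the transcript analysed, Id2-201, has 3 exons and 1270 bases and was the only Id2 transcript in the tables. RefSeq (GRCm38.p6) gave promoter entries for 4 of the 6 genes, Id2, Id3, Tcf3 and Tcf12. Of the 250 bases before the RefSeq start of Id2, the outermost 89, which no GENCODE exon of Id2 covers, are shown with the only E-box of the window in capitals, because this gene had the largest change of the 6. They lie at chr12:25096254-25096342, inside the span of the gene given above, and are read 5′ to 3′ on the minus strand.

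Id2: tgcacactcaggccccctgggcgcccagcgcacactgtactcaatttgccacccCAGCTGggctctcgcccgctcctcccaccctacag

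The capitals begin 196 bases before the start. An E-box on either strand was present in 66.2% of the 32851 promoter windows of the same 250 bases, so its presence is common. The Id2 window also held 3 copies of CCAAT on either strand, a motif present in 33.8% of windows.

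Id2 RNA was at 4.68 and 3.94 RPKM in the untreated libraries, 3.98 and 3.19 at 24 h, 2.25 and 2.08 at 40 h, 3.39 and 5.91 at 72 h, and 157 and 217 at 120 h. The 40 h libraries lay below all others, the 72 h libraries straddled the untreated ones, and the 120 h libraries lay far above every other. The values rested on 484 to 55991 reads. The mean at 120 h was 43.4 times the untreated mean and 40.3 times the mean at 72 h.

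The change of Id2 at 120 h was 5.13 ± 0.23 (log2, SE; adjusted p = 2.96e-07), which ranked at 118 from the highest of the 12989 genes tested. At 24 h it was -0.21 (adjusted p = 1) and at 72 h 0.06 (adjusted p = 0.858). The value at 40 h was -0.74 ± 0.23 and missed the threshold (adjusted p = 0.123). It passed in 5 of the alternatives, among them those without the 120 h group (adjusted p = 0.0450) or with either 120 h library left out. With only the 2 groups compared in the fit, its SE was 0.09 (adjusted p = 0.0112). Between 40 h and 72 h Id2 rose by 0.80 ± 0.23 (adjusted p = 0.0324), a call that was lost in 9 alternatives and was 0.47 (adjusted p = 0.187) without the second 72 h library. The order of its levels was thus 40 h, 24 h, untreated, 72 h and 120 h, with no call between neighbours except the last pair.

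Id3, the third Id gene, lies at chr4:136143497-136145755 on the plus strand, with 3 exons and 1278 bases in the transcript analysed, Id3-201. It was at 0.008 and 0 RPKM in the untreated libraries, 0.027 and 0 at 24 h, 0.009 and 0.013 at 40 h, 0 and 0 at 72 h, and 0.068 and 0.008 at 120 h. These values stood for 0 to 15 reads. The 15 reads were in the first 120 h library, 6 were in the first 24 h library, and the others held 3 or fewer. A count of 0 allows for up to 3 reads, which would be 0.0115 to 0.0135 RPKM over the libraries, for counting error only. Id3 was too low to be tested in any comparison. Id4, the fourth gene of the family and not one of the 6, averaged 0 RPKM in untreated cells and 0.0400 at 120 h.

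Tcf3 encodes the E2A proteins, of which the alternative forms differ in the exon that carries the DNA-binding part. Its gene lies at chr10:80409514-80433647 on the minus strand, and the transcript analysed, Tcf3-209, has 19 exons and 2950 bases. The outermost 238 of the 250 bases before its RefSeq start, at chr10:80433648-80433885 and read on the minus strand, are shown for comparison with Id2, since the RNA of these genes moved in opposite directions. The single E-box of the window is in capitals and begins 54 bases before the start.

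Tcf3: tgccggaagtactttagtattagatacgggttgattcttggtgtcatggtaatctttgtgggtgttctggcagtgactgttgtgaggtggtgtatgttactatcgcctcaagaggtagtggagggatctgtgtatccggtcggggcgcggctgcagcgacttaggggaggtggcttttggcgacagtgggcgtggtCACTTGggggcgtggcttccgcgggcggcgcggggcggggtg

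The Tcf3 window held no CCAAT. Neither the Id2 nor the Tcf3 window held TATAAA on either strand, which 12.4% of windows had.

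Tcf3 RNA was at 50.8 and 52.9 RPKM in the untreated libraries, 51.8 and 52.2 at 24 h, 47.0 and 50.3 at 40 h, 38.8 and 39.6 at 72 h, and 19.1 and 16.7 at 120 h. The 24 h libraries lay between the untreated ones, and both the 72 h and the 120 h libraries lay below all libraries of the shorter times. The untreated mean was 1.32 times the mean at 72 h and 2.90 times the mean at 120 h. Against untreated, Tcf3 fell by 0.39 at 72 h (log2, SE 0.08; adjusted p = 0.00565) and by 1.49 at 120 h (SE 0.08; adjusted p = 1.04e-06). At 24 h the difference was 0.00 (adjusted p = 1) and at 40 h -0.09 (adjusted p = 0.653). The 72 h call was lost without the second untreated library (adjusted p = 0.0502). From 40 h to 72 h Tcf3 fell by 0.30 (adjusted p = 0.0277, lost in 8 alternatives) and from 72 h to 120 h by 1.09 (adjusted p = 7.92e-06).

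Tcf4 encodes E2-2, the E protein known for specifying plasmacytoid dendritic cells. Its gene lies at chr18:69343356-69689079 on the plus strand, and the transcript analysed, Tcf4-207, has 20 exons and 8577 bases. Tcf4 RNA was at 6.75 and 6.32 RPKM in the untreated libraries, 5.74 and 5.23 at 24 h, 4.87 and 5.52 at 40 h, 2.50 and 2.79 at 72 h, and 1.16 and 1.19 at 120 h. Every library that had been without estradiol lay below both untreated libraries, and only the 24 h and 40 h groups overlapped each other. The untreated mean was 1.19, 1.26, 2.47 and 5.57 times the means at 24, 40, 72 and 120 h.

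Tcf4 fell by 1.05 at 72 h (log2, SE 0.09; adjusted p = 5.40e-05) and by 1.79 at 120 h (adjusted p = 6.65e-07). The differences of -0.22 at 24 h (adjusted p = 1) and -0.28 at 40 h (adjusted p = 0.143) did not pass. From 40 h to 72 h it fell by 0.76 (adjusted p = 0.000552) and from 72 h to 120 h by 0.75 (adjusted p = 0.000112). In RPKM, 72.5% of the Tcf4 loss seen at 120 h was present in the 72 h group after 48 h back in estradiol, against 37.2% for Tcf3. A difference between these shares was not tested.

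Tcf12 encodes HEB, the E protein known as a partner of E2A proteins in T cell development. Its gene lies at chr9:71842688-72111871 on the minus strand, and the transcript analysed, Tcf12-202, has 21 exons and 6299 bases. The annotation places 11 other gene models inside the Tcf12 span, and 1 inside that of Tcf4. The sources do not say whether counting used strand. Tcf12 RNA was at 16.7 and 15.6 RPKM in the untreated libraries, 14.9 and 15.3 at 24 h, 15.9 and 17.8 at 40 h, 16.8 and 18.2 at 72 h, and 10.7 and 10.4 at 120 h. The 120 h libraries lay below all others, and the libraries with estradiol restored ran from 14.9 to 18.2 RPKM, on both sides of the untreated ones.

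Tcf12 fell by 0.57 at 120 h (log2, SE 0.08; adjusted p = 0.000262), the untreated mean being 1.53 times the 120 h mean, and by 0.67 from 72 h to 120 h (adjusted p = 0.000109). Its other differences from untreated, -0.09 at 24 h, 0.06 at 40 h and 0.11 at 72 h, had adjusted p of 1, 0.810 and 0.319. The call at 120 h depended on the scaling of the libraries. Median-of-ratios scaling divides each library by the median, over genes, of the ratio of a gene's level to its geometric mean over all libraries. With it the value was -0.16 (adjusted p = 0.0906), and with quantile normalization it was -0.40 (adjusted p = 0.00170).

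The scaling matters for every value at 120 h, because the median change over all genes tested was -0.36 there and 0.02 at 72 h (log2). Among genes called at 120 h, 3579 were higher and 6848 lower as deposited, against 5217 and 4986 with median-of-ratios scaling. Under that scaling Id1 changed by 2.43, Id2 by 5.56, Tcf3 by -1.06 and Tcf4 by -1.51, each still past the threshold (adjusted p = 4.48e-06 or lower). Relative to the median of all genes, then, Id1 and Id2 were higher and Tcf3 and Tcf4 lower at 120 h under each of the 3 scalings, while for Tcf12 the call was lost under median-of-ratios scaling.

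**Figure D2:**
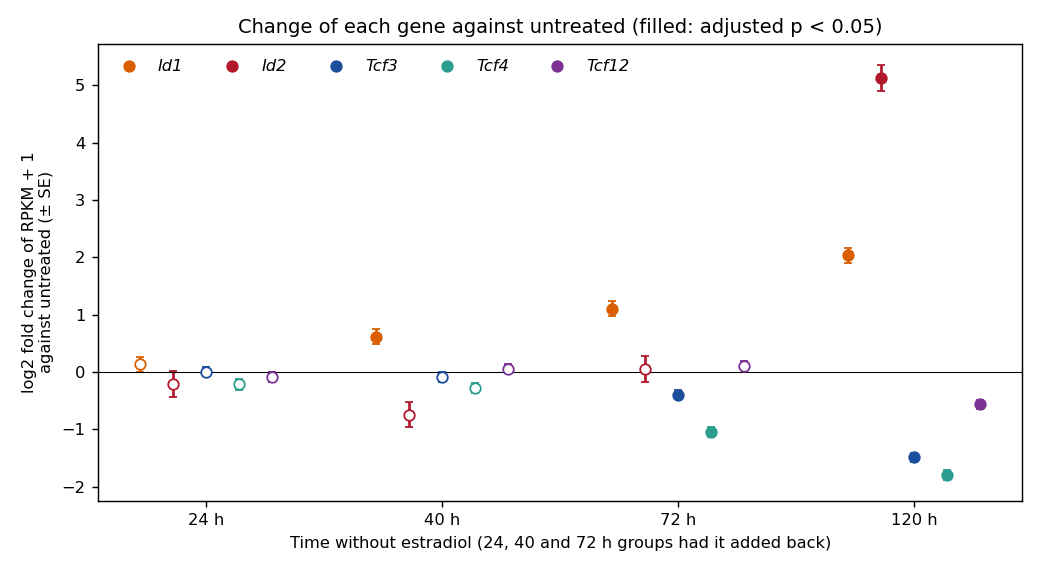
Change of 5 genes against untreated on the log2(RPKM + 1) scale, with its standard error, by time without estradiol. Filled points passed the test at an adjusted p under 0.05. At 24 h all points are open and near 0, at 72 h Id1 is up and Tcf3 and Tcf4 are down, and at 120 h all 5 points are filled, with Id2 highest at 5.13.

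Counted over the 5 genes tested, none was called at 24 h, where 0.0% of all 12989 genes were (365 genes had an unadjusted p under 0.05, and limma-voom on the recovered reads also called 0). At 40 h 1 of 5 was called, against 4.29% of all genes (0.932% higher and 3.36% lower). At 72 h 3 of 5 were called, 1 higher and 2 lower, against 43.9% of all genes (21.5% higher and 22.3% lower). At 120 h 5 of 5 were called, 2 higher and 3 lower, against 80.3% of all genes (27.6% higher and 52.7% lower). From 24 h to 40 h 0 of 5 were called, against 0.285% of all genes (0.169% higher and 0.115% lower). From 40 h to 72 h 4 of 5 were called, 2 in each direction, against 27.7% of all genes (13.9% higher and 13.8% lower). From 72 h to 120 h 5 of 5 were called, 2 higher and 3 lower, against 77.4% of all genes (26.4% higher and 51.0% lower). Both libraries of a group lay beyond both untreated libraries for 43.9% of all genes at 24 h, 62.5% at 40 h, 80.8% at 72 h and 89.0% at 120 h. A lack of overlap with the untreated libraries, like a call at 72 h or 120 h, was thus common among all genes. The comparisons with untreated share the same 2 untreated libraries.

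Because the counting gave levels per kilobase, the RNA of the families could be summed. The Id sum was 6.06 to 6.95 RPKM in the 6 libraries of the untreated, 24 h and 40 h groups, 9.60 and 12.6 at 72 h, and 172 and 229 at 120 h. The E-protein sum was 67.8 to 74.8 RPKM in the same 6 libraries, 58.0 and 60.6 at 72 h, and 31.0 and 28.3 at 120 h. The ratio of Id to E-protein RNA was therefore 0.0833 to 0.0959 up to 40 h, 0.165 and 0.208 at 72 h, and 5.57 and 8.09 at 120 h. At 40 h the sum stayed within the range of the untreated and 24 h libraries while its makeup differed: Id1 was 32.6% and 40.5% of the Id sum in the untreated libraries and 65.1% and 67.6% at 40 h, and it was 8.86% and 4.99% at 120 h. The makeup of the E-protein sum moved too. Tcf3 supplied 68.4% and 70.7% of it in the untreated libraries and 61.7% and 58.9% at 120 h, and Tcf12 22.5% and 20.8% in the untreated libraries and 34.5% and 36.9% at 120 h. Tcf4 went from 9.10% and 8.44% to 3.74% and 4.20%. These ratios are of RNA and are given without a test.

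**Figure D3:**
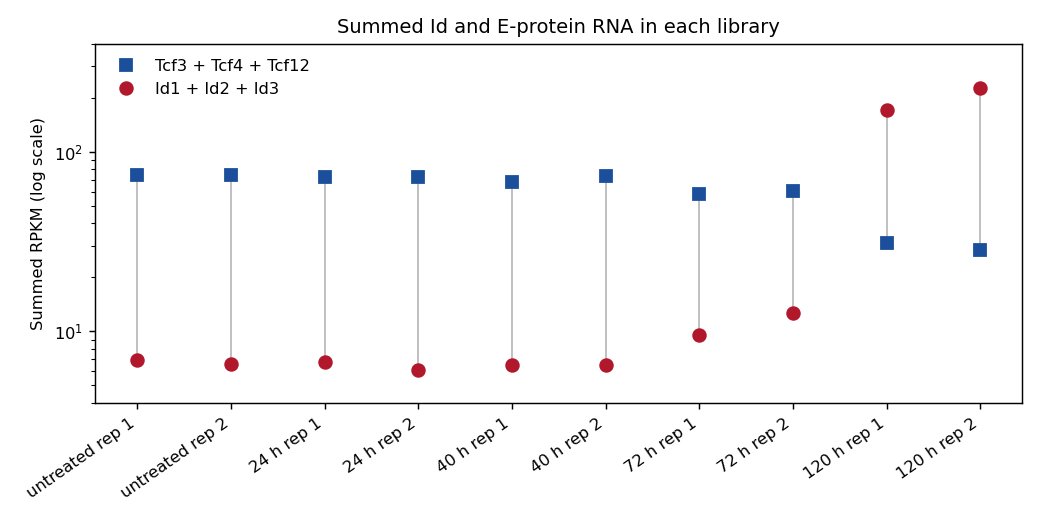
Summed RPKM of the 3 Id genes (circles) and the 3 E-protein genes (squares) in each of the 10 libraries, on a logarithmic axis. The squares lie above the circles in the first 8 libraries, the gap narrows in the 72 h libraries, and the order is turned in both 120 h libraries.

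The E-protein genes have many annotated transcripts, which share exons, so the transcripts of a gene are not independent and are given as a description. All 14 listed Tcf3 transcripts were lower in both 120 h libraries and in both 72 h libraries than in either untreated library, at 32.6 to 38.9% of untreated at 120 h and 71.5 to 83.8% at 72 h. The same held for all 15 Tcf4 transcripts, at 17.7 to 24.2% of untreated at 120 h and 34.9 to 53.5% at 72 h. Of the 21 Tcf12 transcripts, the 20 that reached 1 RPKM in some library were at 65.4 to 74.3% of untreated at 120 h. At 72 h they were at 105 to 127% of untreated, and 17 of the 20 lay above both untreated libraries. The transcript chosen for a gene therefore did not set the direction of its change at 120 h. Levels did depend on it. Coding transcripts at 120 h ran from 13.9 to 23.1 RPKM for Tcf3, 4.88 to 20.9 for Tcf12 and 10.9 to 13.3 for Id1. In untreated cells those of Tcf4 ran from 1.07 to 10.9 RPKM. The order of the genes by level, and the sums, shares and ratios, thus hold for the transcripts analysed. Between 24 h and 40 h, where Tcf4 was not called, the sign of its difference did depend on the transcript.

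**Figure D4:**
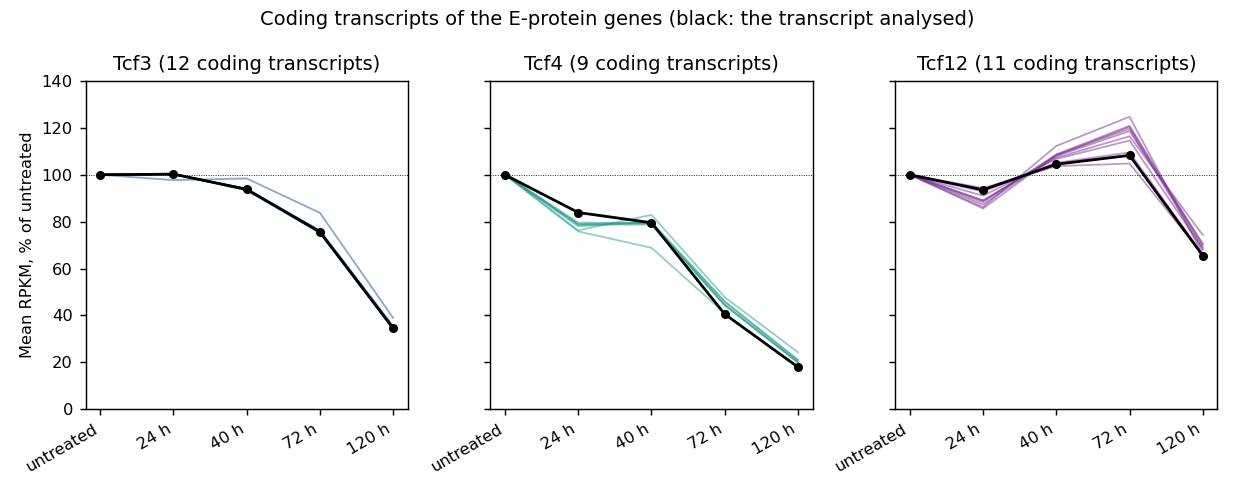
Mean RPKM of each coding transcript of the E-protein genes as a percentage of its untreated mean, by time without estradiol, with the transcript analysed in black. The lines of Tcf4 lie below 100% from 24 h on and those of Tcf3 drop at 72 h and 120 h, while those of Tcf12 stay at or above 100% at 72 h and lie between 65.4 and 74.3% at 120 h.

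Across the 10 libraries Id1 ran most nearly opposite to Tcf4 (Pearson r of log2(RPKM + 1) = -0.97) and Id2 to Tcf3 (r = -0.96). Within the families r was 0.83 between Id1 and Id2, 0.95 between Tcf3 and Tcf4, 0.86 between Tcf3 and Tcf12 and 0.71 between Tcf4 and Tcf12. These values describe 5 groups of 2 libraries, so libraries of a group are not independent points. Of the 8819 tested genes with a mean of at least 5 RPKM in their highest group, those most like Id1 were Ndfip2 (r = 0.99), Tgfbr1 and Mfsd14b. Tgfbr1, which encodes a TGF-beta receptor, had group means of 10.2, 11.1, 12.8, 15.4 and 21.5 RPKM from untreated to 120 h. Those most like Id2 were Pilra, Smox and Nfkbia, the last encoding an inhibitor of NF-kappa-B, which had means of 11.7, 10.7, 9.33, 11.3 and 55.4 RPKM and so shared the low point at 40 h. Zbtb12, Btla and Rhobtb2 ran closest to Tcf3, and Ptprm, Gimap6 and Sept6 closest to Tcf4. Gimap6 had means of 31.9, 27.7, 20.8, 4.05 and 0.305 RPKM. Closest to Tcf12 were Mettl14, Nkapd1 and Lrrcc1, with r of 0.99.

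Markers of several cell types changed over the same times. The 14 progenitor markers summed to 9306 and 9840 RPKM at 72 h, where 4 rose and 5 fell. At 120 h they summed to 1021 and 1980 RPKM, and 9 fell and 4 rose. The shares over all genes were 21.5% higher and 22.3% lower at 72 h, and 27.6% and 52.7% at 120 h. All 12 mature neutrophil markers rose at 120 h, where their summed level was 25434 and 25483 RPKM against 38.2 and 42.9 in untreated libraries, and 11 of 12 rose at 72 h, where the sum was 467 and 741. Of the 12, 9 were under 1 RPKM in both untreated libraries and entered the test through groups where they were higher. Monocyte and macrophage markers summed to 122 and 124 RPKM in untreated libraries, 712 and 803 at 72 h and 1776 and 1824 at 120 h. Of their 10 genes tested, 9 rose and 1 fell at 120 h. Ly6c2, Cd14, Cx3cr1 and Gpnmb were under 1 RPKM in both untreated libraries and entered the test through groups where they were higher. Dendritic cell markers, of which 5 of 10 were tested, went from 4.26 and 5.78 RPKM in sum to 276 and 452 at 120 h. All 5 were called higher there. H2-Eb1 was under 1 RPKM in both untreated libraries and entered the test through groups where it was higher. Mast cell, basophil and eosinophil markers summed to 187 and 212 RPKM in untreated libraries and 1353 and 1533 at 72 h. At 120 h they summed to 265 and 491 RPKM. Among the 5 tested, 3 rose and 2 fell at 72 h, and likewise at 120 h. Epx and Ms4a2 were under 1 RPKM in both untreated libraries and entered the test through groups where they were higher. B cell markers, of which 3 of 7 were tested, summed to 52.4 and 52.6 RPKM in untreated libraries and 86.4 and 99.1 at 120 h. Although the sum was higher, 1 of the 3 was called higher at 120 h and 2 were called lower. With median-of-ratios scaling 1 was higher and 1 lower. Of 11 tested stress and RNA quality genes, 6 rose and 5 fell at 120 h. The second 72 h library, which had the higher Id2 of its pair, also had the higher neutrophil and dendritic sums, 741 and 23.1 RPKM against 467 and 10.6. The part of these shifts in the Id and E-protein values was not tested.

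Of the partners of E proteins among other helix-loop-helix factors, 4 of 7 tested genes fell at 72 h and none rose, where 22.3% of all genes fell and 21.5% rose. The list held 33 genes, of which 23 were listed in the libraries. Tal2 was under 1 RPKM in both untreated libraries and entered the test through groups where it was higher. At 120 h 4 fell and 2 rose, shares near the 52.7% and 27.6% of all genes, with a median change of -1.68 against -0.36 over all genes. Tal1, which pairs with E proteins in blood stem and progenitor cells, was at 11.1 RPKM in untreated cells, 7.03 at 72 h and 2.06 at 120 h (log2 change -2.0, adjusted p = 2.09e-06). Twist1 was at 14 RPKM in untreated cells and had already dropped to 1.59 at 72 h (-2.53, adjusted p = 4.35e-07) and to 0.959 at 120 h. Bhlha15 was still at 13.4 RPKM at 72 h against 17.2 in untreated cells, and fell to 0.739 at 120 h (-3.39, adjusted p = 3.70e-08). Hes6 fell by 0.59 at 72 h (adjusted p = 0.000316). Lyl1, a close relative of Tal1, was at 51.4 and 50.9 RPKM in untreated and 120 h cells and was not called (adjusted p = 0.872), although with median-of-ratios scaling its change was 0.41 (adjusted p = 0.0225).

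Of 21 genes for cofactors of E proteins and members of the LMO complex, which joins Tal1 and an E protein to GATA factors, 16 were tested, with 5 higher and 5 lower at 72 h (21.5% and 22.3% of all genes) and 6 higher and 9 lower at 120 h (27.6% and 52.7% of all genes). The medians were 0.02 and -0.33, against 0.02 and -0.36 over all genes. With median-of-ratios scaling 7 were higher and 6 lower at 120 h, and the median was 0.07 against 0.01 over all genes. The histone acetyltransferase gene Kat2a fell by 1.65 at 120 h, while Ep300, another acetyltransferase gene, rose by 1.5 and the repressor gene Zeb2 by 1.42. At 72 h Gata2 fell by 0.78 and Ssbp2 by 0.76, while Cbfa2t3 rose by 0.79. Lmo2 had values of -0.11 at 72 h and 0.13 at 120 h and was not called, and Ssbp4 was not called at 72 h. With median-of-ratios scaling Lmo2 was called higher at 120 h (0.56, adjusted p = 0.000162).

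Of 24 lymphoid genes known to depend on E proteins, 15 were tested. At 40 h 6 were lower, none was higher and 9 were not called, where 3.36% of all genes were called lower. At 72 h 10 were lower and 3 higher, against 22.3% and 21.5% of all genes. At 120 h 10 were lower and 4 higher, against 52.7% and 27.6% of all genes, so that the share lower stood nearer to that of all genes. Of the 15, 7 were under 1 RPKM in both 120 h libraries and entered the test through the earlier groups. Blnk and Il7r were under 1 RPKM in both untreated libraries and entered it through groups where they were higher. The list medians were -0.43, -1.46 and -1.35, against -0.01, 0.02 and -0.36 over all genes. Igll1, a surrogate light chain gene of early B cells, had group means of 152, 3.90 and 0.381 RPKM in untreated, 72 h and 120 h cells (changes of -4.97 and -6.79). Rag2, part of the recombinase of antigen receptor genes, had means of 29.6, 1.67 and 0.00750 RPKM, and Ebf1, a B lineage factor, 23.9, 1.92 and 0.00850. Dntt, which encodes terminal transferase, fell by 3.32 at 72 h. The 6 genes called lower at 40 h, named here after their values were seen, were Rag1, Rag2, Dntt, Vpreb3, Cd79a and Cd79b, with changes from -0.43 for Cd79b to -1.49 for Dntt. Foxo1 at 120 h, and Notch1 and Il7r at 72 h, were not called. With median-of-ratios scaling 5 of the 15 were higher and 9 lower at 120 h. Among those higher were Blnk (3.22), Il7r (2.57), Notch1 (2.21) and Foxo1 (0.33, adjusted p = 0.0228).

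Genes tied to Tcf4 in plasmacytoid dendritic cells did not move as 1 group. Of 17 genes 16 were listed and 9 tested. At 72 h 4 were higher and 3 lower, against 21.5% and 22.3% of all genes. At 120 h 6 were higher and 3 lower, against 27.6% and 52.7% of all genes. Cox6a2 fell from 75.1 RPKM to 4.89 at 72 h and 0.683 at 120 h. The interferon factor gene Irf7 rose by 4.90 at 120 h (2.21 to 97.5 RPKM), and the receptor gene Tlr7 by 1.43 at 72 h and 4.05 at 120 h. Lair1, an inhibitory receptor gene, rose by 1.25 at 72 h, and Irf8 was not called there. Tlr7 and Tlr9 were under 1 RPKM in both untreated libraries and entered the test through groups where they were higher. Mature myeloid markers rose at the same times, and their part in these values was not tested.

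Genes tied to Id2 in innate lymphoid and natural killer cells were mostly too low to test, with 5 of 15 listed genes tested. At 120 h 3 were called higher and 1 lower, against 27.6% and 52.7% of all genes. Klrk1, an activating receptor gene, was at 0.0345 RPKM in untreated cells, 1.96 at 72 h and 10.6 at 120 h. It and Rora were under 1 RPKM in both untreated libraries and entered the test only through groups where they were higher, so their calls follow in part from the filter. Nfil3, a factor needed for innate lymphoid cells and known to act upstream of Id2, rose by 1.20 at 120 h (9.35 to 22.9 RPKM) and was not called at 72 h. Zbtb16 fell by 0.54 at 120 h, a call lost with median-of-ratios scaling (-0.25, adjusted p = 0.192). Il12rb2 was not called as deposited and was called higher with that scaling (0.38, adjusted p = 0.00444). Of the 5 tested, 4 were then higher and 0 lower at 120 h.

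Of the BMP and TGF-beta genes, the pathway best known for inducing Id genes, 21 of 31 listed were tested, with 6 higher and 7 lower at 72 h and 11 higher and 5 lower at 120 h. The shares over all genes were 21.5% higher and 22.3% lower at 72 h, and 27.6% and 52.7% at 120 h. Median-of-ratios scaling gave 16 higher and 4 lower of the tested BMP and TGF-beta genes at 120 h. Smad1 and Smad5, which carry BMP signals to the nucleus, fell by 1.58 and 1.48 at 120 h, and Smad1 by 0.80 at 72 h. Skil encodes an inhibitor of the pathway and is itself a known target of it. It was under 1 RPKM in both untreated libraries and rose by 2.76 at 120 h and 0.93 at 72 h. Acvrl1 and Smad6 were under 1 RPKM there too, so these genes entered the test through groups where they were higher. The receptor gene Tgfbr2 fell by 1.16 at 72 h and was at 21.1 RPKM at 120 h, against 11.6 in untreated cells. Tgfb1, at 109 RPKM in untreated cells and 111 at 120 h, and Smad4 were not called at either time, though both passed at 120 h with median-of-ratios scaling (0.46 and 0.55).

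Of 14 tested genes of other known inducers of Id genes, 9 were higher, 2 lower and 3 not called at 120 h, where 27.6% of all genes were higher and 52.7% lower. The median was 1.46 against -0.36 over all genes. Egr2, Egr3 and Atf3 were under 1 RPKM in both untreated libraries and entered the test only through groups where they were higher. At 72 h 4 rose and 4 fell, against 21.5% and 22.3% of all genes, with a median of 0.08. Of the early growth response genes, Egr2 was at 0.286 RPKM in untreated cells and 21.8 at 120 h, and Egr1 at 4.36 and 53.6. Egr1 was at 3.75 RPKM at 72 h and was not called there. Atf3, a stress-induced factor gene that is also on the stress list, rose by 3.42 at 120 h. At 72 h Srf rose by 0.83 and Cebpb by 0.69, while Vdr fell by 0.86. Stat5b and Srf were not called at 120 h, and both passed there with median-of-ratios scaling (0.55 and 0.47). Jak2 was not called at 72 h.

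All 17 genes for turnover of Id proteins, which include subunits of the anaphase-promoting complex that marks Id proteins for degradation, were tested, and 15 fell and none rose at 120 h. The shares over all genes were 52.7% lower and 27.6% higher there. The median of the list was -0.70 against -0.36 over all genes. With median-of-ratios scaling 8 fell and 2 rose, so the extent of this decline depended on scaling. The largest changes were those of Cops3 (-1.36), Cdc16 (-1.34) and Cdc20 (-1.29), the last encoding an activator of the complex. Anapc2 and Smurf2 were not called as deposited and were higher with median-of-ratios scaling (0.48 and 0.55). At 72 h 2 rose and 5 fell, against 21.5% and 22.3% of all genes. Usp1, which encodes a deubiquitinase that stabilizes Id proteins, rose by 0.51 at 72 h, and Fzr1 and Anapc7 fell by 0.42 and 0.40. The protein levels that these genes bear on were not measured.

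CDK inhibitor genes include known targets raised by E proteins and held down by Id proteins. They were lower at 72 h in 4 of 5 tested genes, where 22.3% of all genes were lower. At 120 h they were split, with 2 higher and 2 lower, against 27.6% and 52.7% of all genes. Cdkn1a fell by 1.91 at 72 h (30.1 to 7.27 RPKM) and was at 17.6 RPKM at 120 h. Cdkn2d was at 21 RPKM in untreated cells, 10.6 at 72 h and 39.1 at 120 h, so that it was called lower at the one time (-0.92) and higher at the other (0.86). Cdkn2a fell by 0.91 and 1.01, and Cdkn1b rose by 0.98 at 120 h and was not called at 72 h. Cdkn2c was not called at 120 h.

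**Figure D5:**
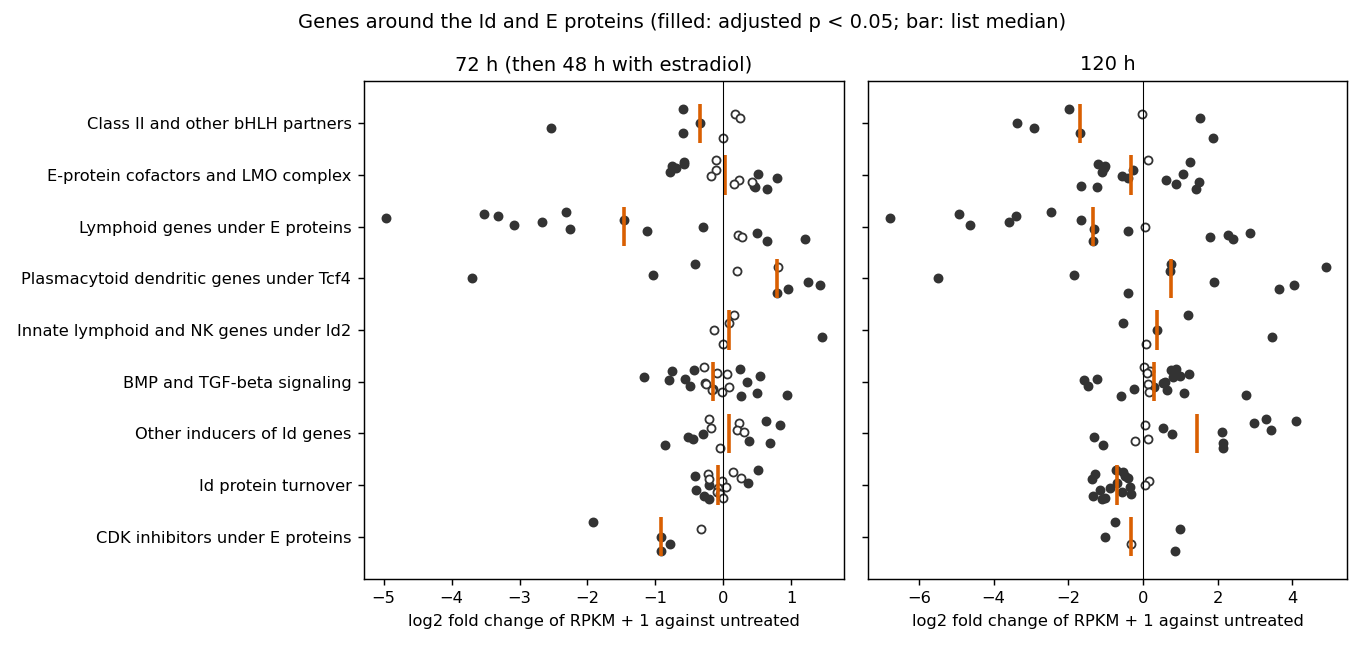
Change against untreated (log2 of RPKM + 1) of the tested genes of 9 lists around the Id and E proteins, at 72 h on the left and 120 h on the right, with different horizontal scales. Filled points passed the test at an adjusted p under 0.05, and the bar marks the median of the list. Lymphoid genes lie mostly to the left at both times, and genes for Id protein turnover lie mostly to the left at 120 h as deposited.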

How the data were processed

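The authors deposited 1 table of RPKM values per library, with 79535 Ensembl transcripts each, per the file headers and names. Per the submitters' processing notes, alignment used STAR and the GRCm38 genome. How reads were counted, with which annotation and with or without strand, and which filter the file names refer to, are not given in the sources. Identifiers were matched to GENCODE M21 (77720, 97.7%), and unmatched ones held 2.64 to 3.24% of summed RPKM. Each gene was represented by 1 transcript chosen from the annotation (coding first, then principal, CCDS and longest), giving 26206 genes. Values of transcripts whose version matched were whole multiples of 1 read within rounding and 0.02 reads, and for a transcript of 2 kb that read came to between 0.00245 and 0.00288 RPKM.

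The 12989 genes with at least 1 RPKM in at least 2 libraries were tested as log2(RPKM + 1) with limma 3.58.1 in R 4.3.3 (group as the only term, all 10 libraries, mean-variance trend, 2-sided, Benjamini-Hochberg adjustment over all genes, called under 0.05). Changes given as log2 are on this scale, which compresses those of low genes. The fit was tested on simulated data. Groups came from the titles and treatment labels. The members and gene lists were chosen with earlier results of these data known. Named genes were the members, the 3 genes most correlated with each, and from each list, at 72 h and at 120 h, at most 3 called genes of greatest change and at most 2 not called of highest RPKM. Alternatives were a pseudocount of 0.1, no filter, 2 other scalings, a replicate block, other sets of libraries, array weights, the highest coding transcript, and voom on recovered reads.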

Additional observations from a re-analysis of the deposited data

Results flagged for a closer look

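The changes against untreated differed between neighbouring times by the test of the difference itself for 4 genes between 72 h and 40 h and for 5 genes between 120 h and 72 h (limma, adjusted p under 0.05). Between 72 h and 40 h the difference was 0.49 for Id1, 0.80 for Id2, -0.30 for Tcf3 and -0.76 for Tcf4 (log2). Between 120 h and 72 h it was 0.93 for Id1, 5.08 for Id2, -1.09 for Tcf3, -0.75 for Tcf4 and -0.67 for Tcf12. Of all genes, 27.7% and 77.4% differed between the same times.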

How the results depend on the processing

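With 2 libraries a group, the small differences turned on single libraries and on the groups taken into the fit, and the cause was not tested. Weights estimated for the libraries, lower where the spread was wider, were 2.58 for the untreated and 0.186 for the 120 h libraries. Without the 120 h group 1804 genes were called at 40 h, against 557 with it. Of the differences of the 5 tested genes recomputed under the alternatives, 637 kept their direction and side of the threshold, 34 lost a call, 10 gained one and 9 changed sign. The changes of sign were all in differences that were not called. With 1 library left out, Tcf3 at 24 h ran from -0.025 (without untreated replicate 1; -0.00208 without 24 h replicate 2) to 0.0335, Tcf12 at 40 h from -0.0203 (without 40 h replicate 2) to 0.137, and Id2 at 72 h from -0.272 (without 72 h replicate 2; -0.0441 without untreated replicate 2) to 0.384. Tcf4 from 24 h to 40 h ran from -0.141 to 0.00945 (without 40 h replicate 1) and was 0.022 with the highest coding transcript. Tcf12 from 40 h to 72 h ran from -0.0292 (without 40 h replicate 1; -0.00621 without 72 h replicate 2) to 0.128.

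The number of the 5 genes called at 40 h was 1 as reported, 0 with no filter or with voom, 2 with only the 2 groups compared or without the 120 h group, 3 with array weights, and 0 to 2 with 1 library left out. From 24 h to 40 h it was 0 as reported, 1 without the 120 h group or with array weights, and 0 to 1 with 1 library left out. From 40 h to 72 h it was 4 as reported, 2 with no filter, and 1 to 4 with 1 library left out. With 1 library left out it was 2 to 3 at 72 h and stayed at 5 at 120 h and from 72 h to 120 h.

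Over all genes, with 1 library left out, the count called was 0 to 3 at 24 h (34 with array weights), 41 to 1788 at 40 h (557 as reported, 2857 with array weights), 3578 to 7872 at 72 h (5700 as reported), 0 to 236 from 24 h to 40 h (37 as reported, 492 with array weights) and 1974 to 6075 from 40 h to 72 h (3600 as reported, 6076 without the 120 h group).

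The replicate block left the calls of the 5 genes as they were. Over all genes the block gave 165 higher and 531 lower at 40 h, against 121 and 436 without it. Deviations of same-numbered libraries from their group means correlated at 0.03 to 0.64 over 10 pairs of groups, 2 of them under 0.1. The highest values were 0.64 between 72 h and 120 h and 0.41 between 40 h and 120 h. The labels do not say what the numbers mark, and whether they mark a pairing was not settled. Depth limits only Id3, at 0 to 15 reads.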
